A study of Mus musculus with 40 samples.

Results

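The 9 genes described here carry corticosteroid and stress-peptide signals in the brain. They are the corticosteroid receptor genes Nr3c1 and Nr3c2, the steroid enzyme gene Hsd11b1, the hormone-responsive genes Fkbp5, Sgk1 and Tsc22d3, the receptor genes Crhr1 and Crhr2 for corticotropin-releasing hormone (CRH), and Crhbp, which encodes the protein that binds CRH. They were picked by their symbols in the platform annotation, taking the row with the highest mean for each gene, and each had 1 row. They make up 9 of the 19505 named genes on the array, and all 9 were among the 14978 genes that passed the filter on dim signals.

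RNA was measured on 40 Affymetrix microarrays from mice with the alanine form of the type 2 deiodinase gene Dio2 (Ala; genotype Ala92D2HY in the labels) or the threonine form (Thr; genotype Thr92D2HY). Dio2 encodes the enzyme that makes the active thyroid hormone from thyroxine, and the letters HY are not explained in the labels. Each genotype had 4 arrays from each of 5 brain regions: amygdala, cerebellum, hippocampus, prefrontal cortex and striatum. All mice were 8 to 10 weeks old, on a background written C56BL/6 in the labels, and were kept at 22 °C on chow. Sex, the way the allele was introduced and the animal behind each array are not given in the sources used here, so a p-value here reflects the scatter of the 40 arrays, part of which may be technical. Arrays of different regions may share an animal. With 4 arrays a group, precision is limited by their number.

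Corticosterone, the main glucocorticoid of the mouse, enters cells and binds a pair of nuclear receptors. The mineralocorticoid receptor (Nr3c2) has the higher affinity for it and is known for its abundance in hippocampal neurons, while the glucocorticoid receptor (Nr3c1) is found in most cells and is engaged when hormone rises under stress. Upstream, CRH released in stress acts through Crhr1, Crhr2 is a receptor for urocortins, and the protein made from Crhbp binds CRH and keeps it from the receptors.

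Levels are log2 signals after RMA, the authors' normalization, so 1 unit is a doubling, and a level is comparable between arrays for 1 gene but not between genes. The median of the negative control rows ran from 5.73 to 6.35 over the arrays and serves as the background. Hsd11b1, Nr3c1, Nr3c2, Fkbp5, Sgk1, Tsc22d3 and Crhr1 lay above that median on 40 of 40 arrays. Crhbp did so on 36, missing 4 of the 8 cerebellum arrays, and Crhr2 did so on only 4, all from the amygdala. Tissue markers matched the region labels in part: 9 of 9 cerebellum, 10 of 10 striatum, 10 of 11 hippocampus, 7 of 10 neocortex and 7 of 12 amygdala markers were higher in their own region. In the prefrontal cortex 5 of 6 olfactory bulb markers were higher too, and 6 of 10 neocortex markers were higher in the amygdala. Ala amygdala replicate 2 had a hippocampus marker score of 0.994 against -0.279 to 0.0179 on the other amygdala arrays, and Ala amygdala replicate 1 had a striatum marker score of 2.47 and a neocortex marker score of 1.01. Its cerebellum marker score was 2.02, against -0.463 to 0.102 on the other amygdala arrays. Dio2, whose genotypes differ by an amino acid, showed an average Ala minus Thr difference of 0.03 ± 0.09 (SE; limma adjusted p = 1), which does not check the genotype. In the cerebellum its Ala arrays read 7.95 to 8.04 and its Thr arrays 8.19 to 8.49, without overlap, as for 2.66% of all genes. No gene passed adjustment there, and in the other regions the Dio2 arrays of the genotypes overlapped.

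**Figure D1:**
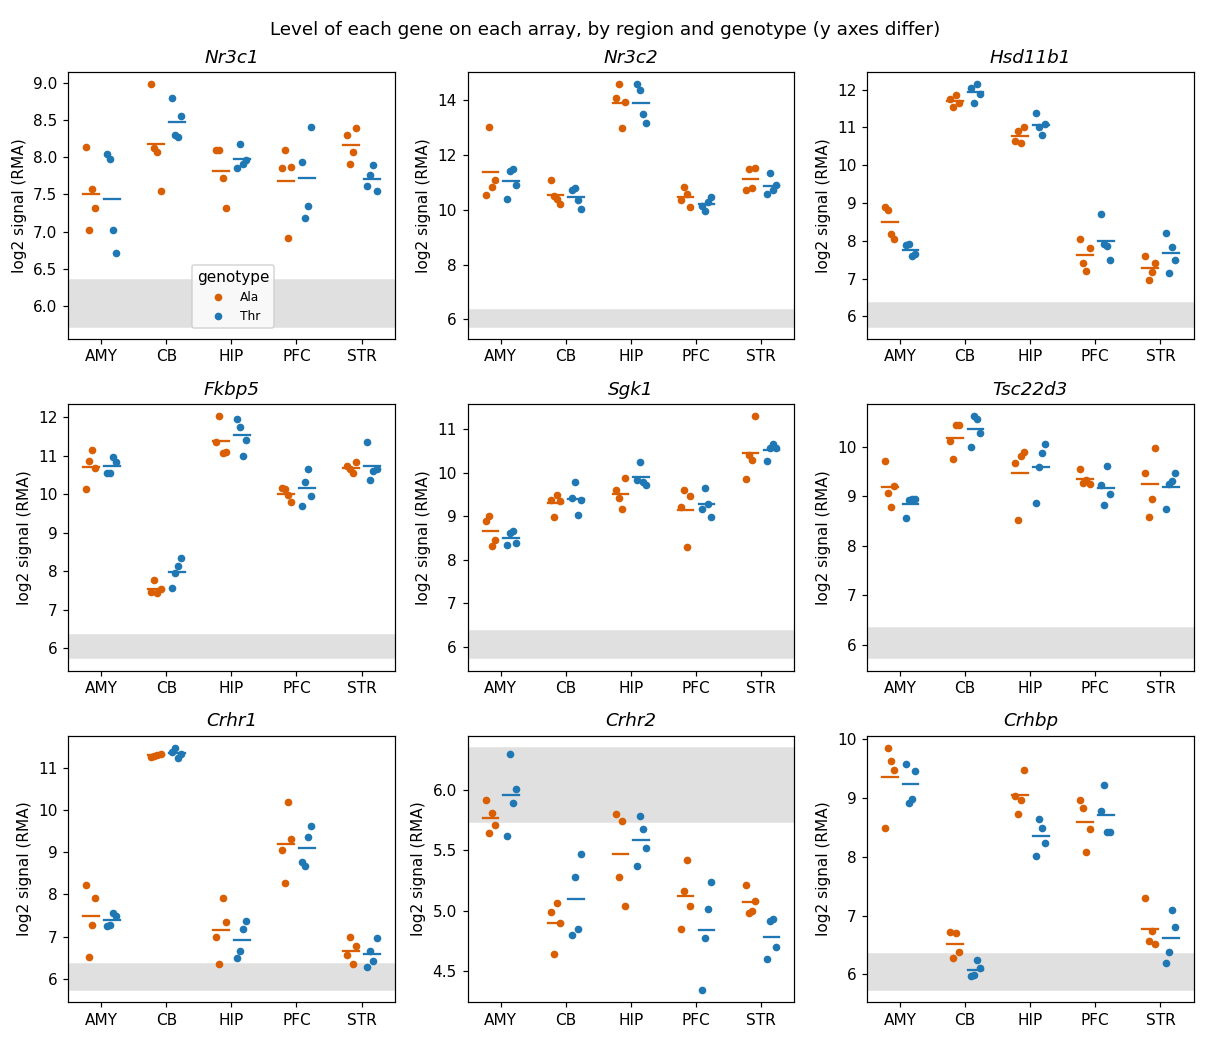
The log2 RMA signal of each gene is plotted for every array, with regions along the x axis (AMY amygdala, CB cerebellum, HIP hippocampus, PFC prefrontal cortex, STR striatum), Ala arrays in orange left of Thr arrays in blue, and bars at the means of 4 arrays. The grey band spans the negative-row medians of 5.73 to 6.35, and Crhr2 sits in or below it on every array, while Hsd11b1 and Crhr1 stand highest in the cerebellum and Nr3c2 in the hippocampus.

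The first comparison asked how each gene was distributed over the brain, a question the study's design names for the regions as a whole. Each region was set against the mean of the other 4 with limma over all 40 arrays, and a call needed a difference of at least 1 log2 unit with a Benjamini-Hochberg adjusted p under 0.05. The range between a gene's highest and lowest region mean had a median of 3.00 log2 units for the 9 genes and 0.70 for all genes tested. The 9 genes were chosen with earlier results of these data known. This range and the calls below therefore describe them and are no independent test against all genes. In tissue samples a lower signal from fewer cells of a type and one from less RNA per cell cannot be told apart.

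The cerebellum differed in 6 of the 9 genes, against 18.7% of all genes called there. Higher were Hsd11b1, Crhr1 and Tsc22d3 (8.69% of all genes were higher), and lower were Fkbp5, Crhbp and Nr3c2 (10.1% were lower). The hippocampus differed in 4 (5.91% of all genes), with Nr3c2, Hsd11b1 and Fkbp5 higher (3.57%) and Crhr1 lower (2.34%). The amygdala differed in 4 (5.84%), with Crhbp higher (3.40%) and Hsd11b1, Sgk1 and Crhr1 lower (2.44%). The striatum also differed in 4 (10.9%), with Sgk1 higher (5.71%) and Hsd11b1, Crhr1 and Crhbp lower (5.20%). The prefrontal cortex differed in 3 (5.21%), with Crhr1 higher (3.28%) and Hsd11b1 and Nr3c2 lower (1.94%). When a gene's regions were put in order of level, 14 of the 36 pairs of neighbours differed, against 17.1% of such pairs over all genes.

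**Figure D2:**
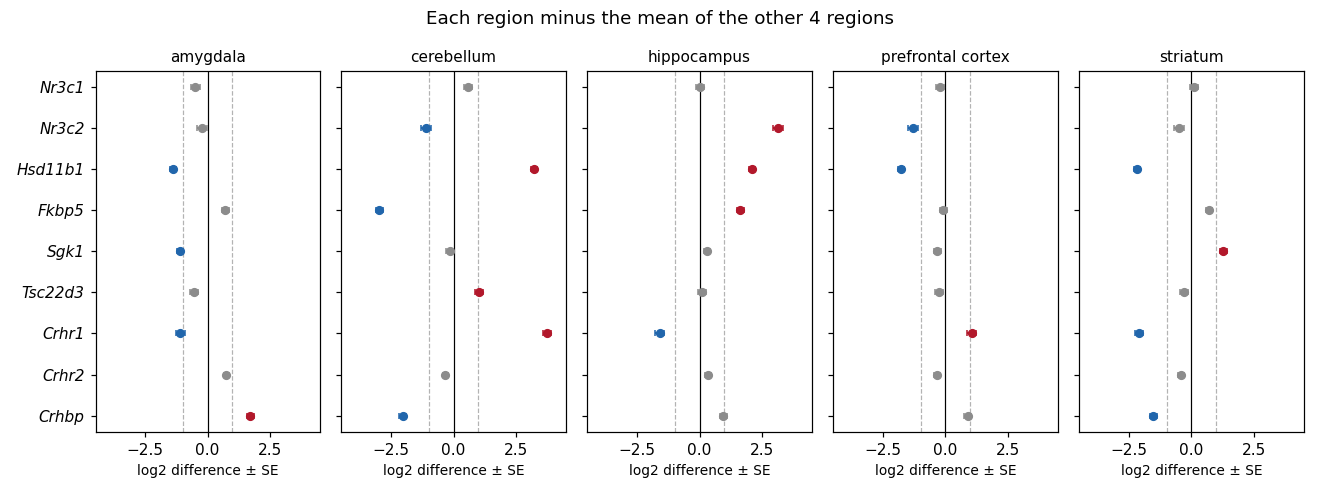
Each panel plots, for 1 region, the log2 difference from the mean of the other 4 regions with its standard error from the limma fit (8 arrays a region), with red for called higher, blue for called lower and grey for not called, and dashed lines at 1 unit on either side. Crhr1 in the cerebellum at 3.76 is the highest of these differences and Fkbp5 in the cerebellum at -2.98 the lowest.

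Nr3c1, the glucocorticoid receptor gene, had the smallest range of region means of the 9 genes, and no region was called for it. That range was 0.85 log2 units, against a median of 0.70 for all genes tested, so Nr3c1 was not unusually even. The lowest, median and highest signals of Nr3c1 were 7.54, 8.29 and 8.98 in the cerebellum and 6.72, 7.45 and 8.13 in the amygdala. These regions stood at the ends of its order. Those ranges overlapped, and striatum, hippocampus and prefrontal cortex lay between them with means of 7.93, 7.89 and 7.70. No 2 neighbours in that order differed (lowest limma adjusted p = 0.105). The ends did differ, with the amygdala 0.85 ± 0.21 log2 units below the cerebellum (difference -0.85, adjusted p = 0.000526). Against the other regions Nr3c1 differed by 0.58 ± 0.16 in the cerebellum and -0.49 ± 0.16 in the amygdala, both under the 1 unit needed for a call.

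Nr3c2, the mineralocorticoid receptor gene, was highest in the hippocampus. Its lowest, median and highest signals there were 13.00, 14.00 and 14.60, against 10.41, 10.99 and 13.03 in the amygdala, the next region in the order. A single amygdala array, Ala replicate 2 at 13.03, reached the hippocampal range, and it is the array with the high hippocampus marker score. On all other arrays from outside the hippocampus the highest signal was 11.54, so without it the hippocampus overlapped no region. The hippocampus stood 3.14 ± 0.20 log2 units above the other regions (limma adjusted p = 4.87e-16). Nr3c2 was lower in the prefrontal cortex by -1.32 ± 0.20 (adjusted p = 1.45e-06) and in the cerebellum by -1.11 ± 0.20 (adjusted p = 8.4e-06). Below the hippocampus the order ran amygdala 11.22, striatum 11.01, cerebellum 10.51 and prefrontal cortex 10.34, and no neighbours among them differed. The genes closest to it over the 10 group means, by Pearson correlation as a description, were Iyd, C1ql2 and Syna, each at 0.98, and Iyd and C1ql2 are in the list of hippocampus markers.

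Hsd11b1 encodes the enzyme that turns inert 11-keto steroid back into corticosterone inside cells. Its cerebellar signals had a lowest, median and highest value of 11.53, 11.80 and 12.15, and its hippocampal signals of 10.59, 10.95 and 11.38. The cerebellum and hippocampus overlapped neither each other nor the remaining regions, whose highest signal was 8.90 in the amygdala, 8.72 in the prefrontal cortex and 8.22 in the striatum. Against the other regions the cerebellum was higher by 3.23 ± 0.13 log2 units (limma adjusted p = 3.37e-24) and the hippocampus by 2.12 ± 0.13 (adjusted p = 8.35e-17). The striatum was lower by -2.19 ± 0.13, the prefrontal cortex by -1.78 ± 0.13 and the amygdala by -1.38 ± 0.13. Those 3 low regions had means of 8.13 in the amygdala, 7.81 in the prefrontal cortex and 7.48 in the striatum, and neighbours among them did not differ (adjusted p = 0.194 and 0.122). Susd6 and Thrsp at 0.99 and Fgfr1 at 0.98 had the most similar group means.

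Of the other genes of steroid supply and metabolism, 8 of 12 listed were measured, and 2 of them were called in some region. In the cerebellum 1 was higher and 1 lower (8.69% and 10.1% of all genes), and in the hippocampus 1 was higher (3.57%). With 8 genes a count of 1 already exceeds such a share, so these counts say nothing about the list as a group. H6pd, which supplies the cofactor that Hsd11b1 uses in the endoplasmic reticulum, was higher in the cerebellum by 1.96 ± 0.13 (limma adjusted p = 2.82e-16), at a mean of 7.61 there against 5.46 to 5.80 elsewhere, at or below background, so the size is not exact. In the hippocampus, where Hsd11b1 was also higher, H6pd differed by -0.53 ± 0.13 (limma adjusted p = 0.00222), under the size needed for a call. The other regions in that difference include the cerebellum. The hippocampal H6pd mean of 5.61 lay below the background band and within the 5.46 to 5.80 of the regions outside the cerebellum. Cyp7b1, an oxysterol and neurosteroid hydroxylase, was higher in the hippocampus by 1.95 ± 0.14 and lower in the cerebellum by -1.44 ± 0.14. In these regions Cyp7b1 had both signs of Nr3c2, while it shared only the hippocampal sign with Hsd11b1. The list's median difference was -0.01 in the cerebellum and -0.07 in the hippocampus, against -0.005 and -0.03 for all genes.

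**Figure D3:**
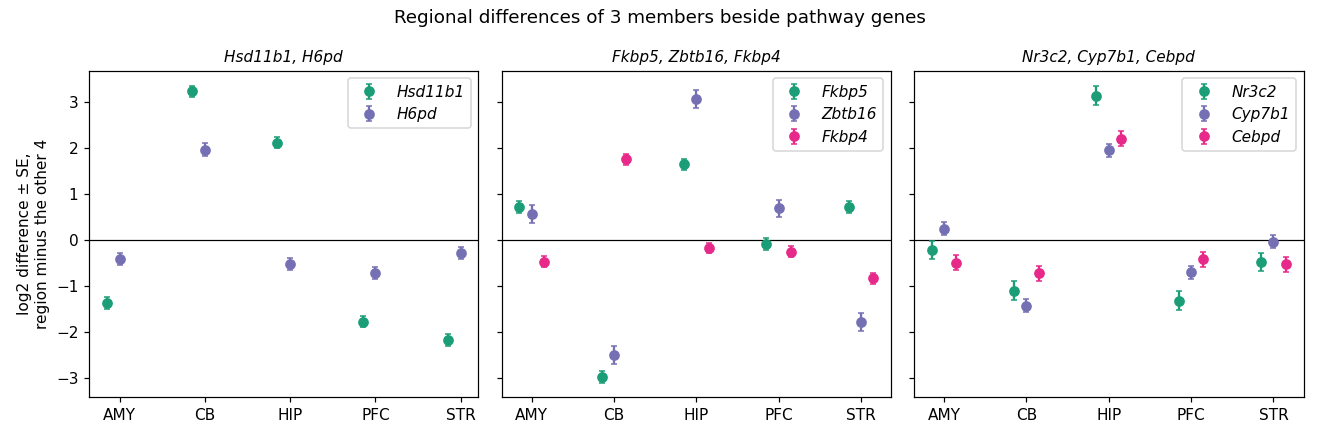
The log2 difference of each region from the other 4 regions is plotted with its standard error (y axis; 8 arrays a region) for Hsd11b1 beside H6pd, for Fkbp5 beside Zbtb16 and Fkbp4, and for Nr3c2 beside Cyp7b1 and Cebpd, with regions along the x axis as AMY, CB, HIP, PFC and STR. H6pd is above 0 in the cerebellum only, whereas Hsd11b1 is above 0 in cerebellum and hippocampus. Fkbp4 at 1.75 and Fkbp5 at -2.98 lie on opposite sides of 0 in the cerebellum.

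Fkbp5, Sgk1 and Tsc22d3 are all induced by glucocorticoids in many cell types, yet the 3 genes had 3 different regional orders. Fkbp5, a co-chaperone that lowers the hormone affinity of the glucocorticoid receptor, was lowest in the cerebellum. Its lowest, median and highest signals there were 7.42, 7.66 and 8.33, against 9.70, 10.05 and 10.65 in the prefrontal cortex, the next region up. No cerebellar array reached any array of another region. The cerebellum was lower by -2.98 ± 0.13 log2 units (limma adjusted p = 7.67e-23), and the hippocampus, with a mean of 11.46, was higher by 1.64 ± 0.13 (adjusted p = 1.58e-13). Striatum and amygdala, both with means of 10.72, did not differ from each other (adjusted p = 0.999), and every other pair of neighbours did. The most similar genes were Hs3st4, Rgs14 and Cnih2, each at 0.99.

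Sgk1, a kinase that acts on ion channels and transporters and responds to both corticosteroid receptors, was highest in the striatum and lowest in the amygdala. Its lowest, median and highest signals were 9.85, 10.48 and 11.31 in the striatum and 8.31, 8.54 and 9.00 in the amygdala. Those ranges did not overlap, while the striatum overlapped the hippocampus at 9.16, 9.76 and 10.25. The striatum was higher by 1.28 ± 0.14 log2 units (limma adjusted p = 1.71e-10) and the amygdala lower by -1.10 ± 0.14 (adjusted p = 1.49e-08). Hippocampus, cerebellum and prefrontal cortex lay between with means of 9.71, 9.35 and 9.21, and neighbours among these 3 did not differ. Oligodendrocyte markers moved the same way at the ends: 14 of 14 were higher in the striatum (mean 12.7) and 14 of 14 lower in the amygdala (mean 9.38). Their means were 11.4 in both cerebellum and hippocampus and 10.3 in the prefrontal cortex. The genes most like Sgk1 were Qdpr at 0.99 and Cd82 and Rasgrp3 at 0.98. The part of the oligodendrocyte markers in the Sgk1 order was not tested.

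Tsc22d3, also known as GILZ, encodes a leucine zipper protein that mediates anti-inflammatory actions of glucocorticoids. Its lowest, median and highest signals were 9.75, 10.36 and 10.62 in the cerebellum, against 8.53, 9.74 and 10.05 in the hippocampus, the next in order. The ranges overlapped, but the means of 10.27 and 9.54 differed (limma adjusted p = 0.00135). The cerebellum was higher than the other regions by 1.01 ± 0.15 (adjusted p = 2.38e-07), a value at the edge of the 1 unit required. It was 0.94 after quantile normalization, 0.91 with arrays centred on their medians, and 0.97 to just under 1.00 when any of 10 single arrays was left out, all below the size needed for a call. Prefrontal cortex, striatum and amygdala, at 9.26, 9.22 and 9.02, followed with no difference between neighbours. Sesn1, Oma1 and Top3a had the most similar group means, each at 0.98.

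Among the 8 members searched, Sgk1 and Tsc22d3 had promoter windows with letters the corticosteroid receptors bind, so their upstream sequences are shown. RefSeq promoter windows, 250 bases before to 50 bases after an annotated start, were searched for 8 of the 9 genes (15 windows, 6 of them for Sgk1 and 3 for Tsc22d3). Nr3c1 was left out of this search. Below are the 250 bases before 1 start of each gene on build GRCm38.p6, Sgk1 at chr10:21993640-21993889 on the plus strand and Tsc22d3 at chrX:140600523-140600772 on the minus strand, written 5′ to 3′ with the half-site AGAACA or its reverse complement TGTTCT in capitals.

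Sgk1: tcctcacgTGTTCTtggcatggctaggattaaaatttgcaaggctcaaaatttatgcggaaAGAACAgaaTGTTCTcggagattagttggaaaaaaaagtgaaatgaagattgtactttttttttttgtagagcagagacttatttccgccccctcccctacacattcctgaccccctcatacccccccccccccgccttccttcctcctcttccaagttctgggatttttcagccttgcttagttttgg
Tsc22d3: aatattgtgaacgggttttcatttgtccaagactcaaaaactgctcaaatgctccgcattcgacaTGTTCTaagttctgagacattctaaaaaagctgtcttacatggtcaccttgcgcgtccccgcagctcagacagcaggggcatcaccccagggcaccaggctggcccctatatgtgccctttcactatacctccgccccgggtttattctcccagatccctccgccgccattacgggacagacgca

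The Sgk1 sequence held 3 half-sites, of which 2 form a palindrome, AGAACA followed after any 3 bases by TGTTCT, with its first base 189 bases before the start. Searched on both strands, that full palindrome was in 3 of 32851 mouse promoter windows (0.00913%), and among the 15 windows of the members searched it was in 1. The Tsc22d3 sequence held 1 half-site, 185 bases before its start. Half-sites were in 6233 windows (19.0%) and in 4 of the 15, all of Sgk1 or Tsc22d3. The Tsc22d3 match is of this common kind and is not read as a trait of the gene. Every full palindrome also counts as half-sites. These matches describe letters only, and the arrays carry no measure of receptor binding.

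A wider list of genes known as glucocorticoid targets gave 22 measured genes of 25. In the cerebellum 3 were higher and 2 lower (8.69% and 10.1% of all genes), and in the hippocampus 2 were higher and 2 lower (3.57% and 2.34%). In the amygdala 0 were higher and 4 lower (3.40% and 2.44%), in the striatum 0 and 3 (5.71% and 5.20%), and in the prefrontal cortex 1 and 0 (3.28% and 1.94%). Zbtb16, a zinc finger transcription factor, had a mean of 12.38 in the hippocampus and 7.92 in the cerebellum, with differences of 3.07 ± 0.19 and -2.51 ± 0.19 from the other regions. Fkbp5 had the same signs in these regions, but in the striatum Zbtb16 was lower by -1.79 ± 0.19 while Fkbp5 differed by 0.71 ± 0.13. Cebpd, a C/EBP transcription factor, was higher in the hippocampus by 2.20 ± 0.16 (limma adjusted p = 2.48e-14), at 7.44 there and 5.09 to 5.34, below background, elsewhere, so this size is not exact either.

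Other targets had opposite signs in the cerebellum. Bcl6, a transcriptional repressor, was higher there by 1.92 ± 0.14 and Gpd1, an enzyme of glycerol phosphate synthesis, by 1.89 ± 0.14, whereas Rhob, a small GTPase, was lower by -1.36 ± 0.12. In the amygdala the 4 lower targets were Gpd1 (-1.48 ± 0.14), Bcl6 (-1.26 ± 0.14), the cell cycle inhibitor gene Cdkn1a (-1.19 ± 0.24) and the transcription factor gene Klf9 (-1.16 ± 0.12). Cdkn1a was higher in the prefrontal cortex by 3.25 ± 0.24 and lower in the hippocampus by -1.92 ± 0.24. The list's median difference was -0.24 in the amygdala, 0.04 in the cerebellum, 0.12 in the hippocampus, -0.14 in the prefrontal cortex and 0.09 in the striatum, against -0.02, -0.005, -0.03, -0.02 and -0.0009 for all genes.

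Receptor chaperones and coregulators, with 14 of 18 measured, had 2 calls in all. Fkbp4 was higher in the cerebellum and Ppp5c, a phosphatase of the receptor complex, was lower in the striatum by -1.17 ± 0.12. Of all genes, 18.7% were called in the cerebellum, 10.9% in the striatum and 5.21% to 5.91% in each remaining region. The calls therefore do not set this list apart from genes in general. Fkbp4 encodes the co-chaperone that competes with the Fkbp5 product on the receptor complex and favours hormone binding. It stood 1.75 ± 0.12 log2 units higher in the cerebellum (limma adjusted p = 7.87e-17), the region where Fkbp5 was lowest. In the hippocampus, where Fkbp5 was highest, Fkbp4 differed by -0.18 ± 0.12 (limma adjusted p = 0.278). The other regions in that difference include the cerebellum, with a mean of 12.69. The hippocampal mean of 11.15 lay above those of prefrontal cortex, amygdala and striatum, at 11.09, 10.91 and 10.62.

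Crhr1, the main CRH receptor of the brain, was highest in the cerebellum. Its 8 cerebellar arrays ran from 11.22 to 11.47 with a median of 11.32, a narrow spread, against 8.27, 9.18 and 10.19 (lowest, median and highest) in the prefrontal cortex. The cerebellum overlapped no other region, and the prefrontal cortex lay above every amygdala array, whose highest signal was 8.21. The cerebellum was higher by 3.76 ± 0.17 log2 units (limma adjusted p = 5.62e-22) and the prefrontal cortex by 1.05 ± 0.17 (adjusted p = 6.79e-06). Without Ala prefrontal cortex replicate 27, at 10.19, the prefrontal difference was 0.88, and without Thr replicate 32 it was 0.96, both under the size needed for a call. These arrays had the highest olfactory bulb marker scores of the prefrontal cortex, 1.31 and 1.02. Replicates 26 and 29, with the lowest scores of -1.55 and -0.976, read 8.27 and 8.76 for Crhr1, and the part of the olfactory bulb markers in the prefrontal level was not tested. The striatum was lower by -2.11 ± 0.17, the hippocampus by -1.60 ± 0.17 and the amygdala by -1.10 ± 0.17. Striatal signals of Crhr1, at 6.28 to 6.98, lay close to background, so the striatal size is not exact. Without Ala amygdala replicate 2, the array with the high hippocampus score, the amygdala difference was -0.94 and no longer large enough for a call. Lhfp, Ctxn3 and Prune2 at 0.99 were most like it, and Fkbp5 was least like it among the 9 genes at -0.94.

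Crhr2, a urocortin receptor gene, had a highest signal of 6.30, and 36 of 40 arrays put it under the negative-row median. Its region means were 5.86 in the amygdala, 5.53 in the hippocampus, 5.00 in the cerebellum, 4.98 in the prefrontal cortex and 4.93 in the striatum. The amygdala difference of 0.76 ± 0.11 was the largest of the 5 in size and none reached 1 unit, so no region was called for a signal that lay near background throughout.

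Crhbp, which encodes the binding protein that sequesters CRH, was highest in the amygdala. Its lowest, median and highest signals there were 8.50, 9.47 and 9.86, against 8.02, 8.69 and 9.48 in the hippocampus and 8.08, 8.63 and 9.22 in the prefrontal cortex. These ranges overlapped, yet the amygdala mean of 9.30 differed from the hippocampal 8.70 (limma adjusted p = 0.0129), while hippocampus and prefrontal cortex at 8.65 did not differ (adjusted p = 0.897). Striatum and cerebellum lay below all of them, at 6.19, 6.66 and 7.30 and at 5.98, 6.26 and 6.72. Against the other regions the amygdala was higher by 1.71 ± 0.14 (limma adjusted p = 6.91e-13). The cerebellum was lower by -2.04 ± 0.14 and the striatum lower by -1.54 ± 0.14. Cerebellar signals lay around background and striatal signals close to it, so the sizes of these differences are not exact. The hippocampus, at 0.96 ± 0.14, fell just short of a call and passed with quantile normalization (1.00) and with arrays centred on their medians (1.01).

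The 11 interneuron markers had means of 11.1 in the amygdala, 11.2 in the prefrontal cortex, 10.7 in the striatum, 10.6 in the hippocampus and 9.82 in the cerebellum. Their part in the Crhbp order was not tested. Ccn3, Marcksl1 and Unc13b, each at 0.99, had group means most like those of Crhbp. Among the peptide ligands and other stress-axis receptors, with 10 of 14 measured, Oxtr, the oxytocin receptor gene, was called higher in the amygdala, at a mean of 8.87. It was called lower in the cerebellum and the striatum, whose means of 4.80 and 5.21 lay below background, so no size is given. Adcyap1, the gene of the neuropeptide PACAP, was called higher in the prefrontal cortex, at a mean of 6.83, and lower in the striatum, with means of 4.16 to 5.71 outside the prefrontal cortex that all lay below the background band. Mc4r, a melanocortin receptor gene, was called in hippocampus and cerebellum at means of 4.92 and 3.24, below background. Crh itself had region means of 5.52 to 6.26, in or below the background band.

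The second comparison asked whether the Ala and Thr forms of Dio2 went with different levels of these genes. In limma, 0 of the 45 regional differences and 0 of the 9 averages over regions passed an adjusted p of 0.05. The background of called genes was 0.120% in the amygdala, 0.00% in the cerebellum, 0.00% in the hippocampus, 0.00% in the prefrontal cortex, 0.0801% in the striatum and 0.0200% for the average. At an unadjusted p under 0.05 there were 2 of 45, Hsd11b1 in the amygdala (where 5.33% of all genes reached it) and Crhbp in the hippocampus (3.14%), with 0 of 9 genes in the cerebellum (1.94%), the prefrontal cortex (2.33%) and the striatum (6.14%). The differences ran from -0.45 to 0.72 log2 units and 21 of 45 were positive. Their median size was 0.17, against 0.14 for all genes.

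In 5 of the 45 cases the 4 Ala arrays and the 4 Thr arrays did not overlap, and in all 5 the Ala arrays were higher. That was 1 of 9 genes in the amygdala (3.19% of all genes did not overlap there), 1 in the cerebellum (2.66%), 1 in the hippocampus (2.73%), 0 in the prefrontal cortex (1.66%) and 2 in the striatum (1.98%). With 9 genes a count of 1 already exceeds such a share, so these counts say nothing about the genes as a group.

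**Figure D4:**
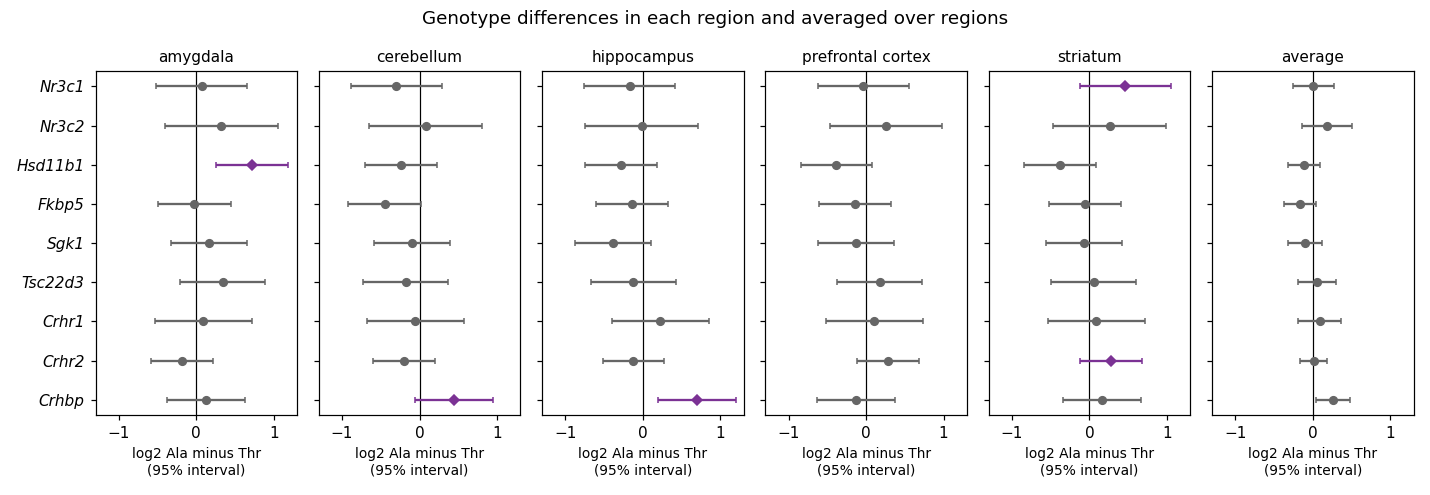
Ala minus Thr differences on the log2 scale with 95% intervals from the limma fit are plotted for the 9 genes in each region (4 Ala and 4 Thr arrays) and averaged over regions. Purple diamonds mark the 5 cases in which the arrays of the genotypes did not overlap, and Hsd11b1 in the amygdala and Crhbp in the hippocampus are the regional cases whose interval leaves out 0.

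Hsd11b1 in the amygdala had signals of 8.04, 8.19, 8.82 and 8.90 on the Ala arrays, against 7.60, 7.66, 7.88 and 7.92 on the Thr arrays. All Ala arrays were higher, by 0.72 ± 0.23 log2 units on average (95% interval 0.26 to 1.18), which did not pass over all genes (limma adjusted p = 0.486). The 2 highest signals came from Ala replicates 1 and 2, the arrays whose marker scores stand apart. Replicate 1 had high striatum, cerebellum and neocortex scores and replicate 2 a high hippocampus score. Cerebellum and hippocampus are the regions with high Hsd11b1 levels, and the part of the other-region markers in this difference was not tested. As replicates 1 and 2 hold the highest signals, leaving either out lowers the difference whatever the reason. The difference was 0.58 without replicate 1, 0.61 without replicate 2, 0.35 without both and 0.57 with the hippocampus score as a covariate, and the adjusted p ran from 0.298 to 0.87 over the alternatives. In the other regions the Ala arrays had the lower means, by -0.24 in the cerebellum, -0.29 in the hippocampus and -0.38 in both prefrontal cortex and striatum. The limma F-test of whether the genotype difference varied between regions was passed by 0 of the 9 genes (0.0401% of all genes passed), each with an adjusted p of 1. Before adjustment 1 of the 9, Hsd11b1, was under 0.05, as were 2.68% of all genes.

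**Figure D5:**
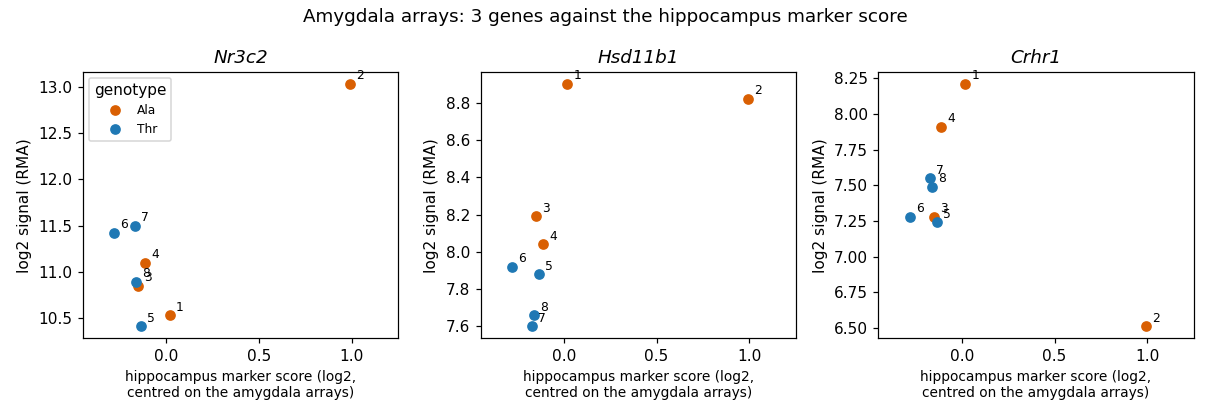
The log2 RMA signals of Nr3c2, Hsd11b1 and Crhr1 (y axes) are plotted against the hippocampus marker score (x axis, log2 units centred on the amygdala) for the 8 amygdala arrays, with Ala in orange, Thr in blue and replicate numbers beside the points. Ala replicate 2, at a score of 0.994, has the highest Nr3c2 signal at 13.03 and the lowest Crhr1 signal at 6.51.

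Nr3c2 in the amygdala showed how far 1 array could carry a mean. Its signals were 10.53, 10.85, 11.10 and 13.03 on the Ala arrays, against 10.41, 10.89, 11.42 and 11.50 on the Thr arrays. The groups overlapped apart from Ala replicate 2 at 13.03. The difference of 0.32 ± 0.36 (limma adjusted p = 1) was -0.23 without that array and -0.02 with the hippocampus score as a covariate. In the hippocampus itself Nr3c2 had 13.00, 13.94, 14.07 and 14.60 in Ala, against 13.19, 13.49, 14.39 and 14.60 in Thr, a difference of -0.01 ± 0.36 with groups that overlapped throughout. The average over regions was 0.18 ± 0.16 (95% interval -0.14 to 0.51).

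Nr3c1 in the striatum had signals of 7.91, 8.07, 8.30 and 8.39 on the Ala arrays, against 7.54, 7.62, 7.76 and 7.89 on the Thr arrays. The groups were apart by a narrow margin, and the difference was 0.46 ± 0.29 (95% interval -0.12 to 1.05; limma adjusted p = 0.853). Choroid plexus marker scores were also higher on these Ala arrays, at 1.40, -0.15, 0.0387 and 2.59, against -1.36 to -0.618 on the Thr arrays. With that score as a covariate the Nr3c1 difference was 0.26, and with the other marker scores tried it was 0.43 to 0.50. As the choroid plexus scores of the genotypes do not overlap in the striatum, score and genotype cannot be told apart there. The part of the choroid plexus markers in the Nr3c1 difference was not tested. Over the 5 regions Nr3c1 averaged a difference of 0.01 ± 0.13 (95% interval -0.26 to 0.27).

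Crhbp in the hippocampus had signals of 8.73, 8.97, 9.03 and 9.48 on the Ala arrays, against 8.02, 8.24, 8.50 and 8.65 on the Thr arrays. Every Ala array was higher, and the difference was 0.70 ± 0.25 log2 units (95% interval 0.20 to 1.20; limma adjusted p = 1). Thr replicates 23 and 24 had high thalamus marker scores of 1.75 and 1.19, and without both the difference was 0.72. In the cerebellum, where Crhbp lay around background, the Ala signals were 6.28, 6.39, 6.71 and 6.72 and the Thr signals 5.98, 5.99, 6.11 and 6.24, a difference of 0.44 ± 0.25 (adjusted p = 1). Amygdala, prefrontal cortex and striatum gave 0.13 ± 0.25, -0.13 ± 0.25 and 0.16 ± 0.25 with overlapping groups. Averaged over regions Crhbp differed by 0.26 ± 0.11 (95% interval 0.04 to 0.49), which did not pass (limma adjusted p = 0.864). It was the only average of the 9 under 0.05 before adjustment, where 5.37% of all genes were.

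Crhr2 in the striatum was the remaining case without overlap, at 4.98, 5.00, 5.08 and 5.21 in Ala, against 4.60, 4.70, 4.91 and 4.93 in Thr, all below the negative-row median. Crhr1 showed no separation in any region: in the cerebellum its Ala arrays read 11.26, 11.27, 11.30 and 11.33 and its Thr arrays 11.22, 11.33, 11.37 and 11.47. Its regional differences were -0.06 to 0.23, each ± 0.31. In the amygdala the Ala arrays of Crhr1 spread from 6.51 to 8.21 while the Thr arrays lay between 7.24 and 7.55. The highest came from replicate 1, the array with the high cerebellum score, and the lowest from replicate 2.

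For the hormone-responsive genes, the averages over regions were -0.16 ± 0.10 for Fkbp5 (95% interval -0.37 to 0.05), -0.10 ± 0.11 for Sgk1 (-0.32 to 0.12) and 0.05 ± 0.12 for Tsc22d3 (-0.19 to 0.30). With every array taken as independent, these intervals leave out an average difference of 0.5 log2 units in either direction. If arrays of different regions share an animal, the intervals may be too narrow, and such a difference is then not excluded. Fkbp5 in the cerebellum had 7.42, 7.45, 7.53 and 7.76 in Ala, against 7.56, 7.94, 8.13 and 8.33 in Thr. Only the highest Ala and the lowest Thr array overlapped, and the difference of -0.45 ± 0.23 did not pass (limma adjusted p = 1). All 5 regional differences of Fkbp5 were negative, from -0.45 to -0.02. Sgk1 in the hippocampus had 9.16, 9.43, 9.60 and 9.88 in Ala, against 9.73, 9.79, 9.83 and 10.25 in Thr, with 1 Ala array inside the Thr range and a difference of -0.38 ± 0.24. Tsc22d3 in the amygdala had 8.78, 9.06, 9.21 and 9.71 in Ala, against 8.57, 8.92, 8.95 and 8.95 in Thr, groups that overlapped, with a difference of 0.34 ± 0.27.

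None of the wider lists had a gene called in limma for the average over regions, and at an unadjusted p under 0.05 there were 2 of 22 glucocorticoid targets, 0 of 14 chaperones and coregulators, 0 of 10 peptides and receptors and 2 of 8 genes of steroid supply, where 5.37% of all genes were. The smallest p-values belonged to Bcl6 among glucocorticoid targets (-0.27 ± 0.11, limma adjusted p = 0.864), Ep300, a coactivator, among the chaperones and coregulators (-0.13 ± 0.08, adjusted p = 0.99), Oxtr among stress-axis peptides and receptors (-0.31 ± 0.16, adjusted p = 0.969) and Cyp7b1 in steroid metabolism (0.24 ± 0.11, adjusted p = 0.905). Of the glucocorticoid targets, 10 of 22 had a positive average difference, with a median of -0.01 against 0.007 for all genes. Within single regions 1 gene of these lists was called, the vasopressin gene Avp in the amygdala, which is named here after its value was seen. Its signals were 3.66, 4.07, 4.33 and 4.53 on the Ala arrays, against 4.67, 5.02, 6.27 and 6.79 on the Thr arrays. The Ala arrays were all lower. All 4 of them and 2 of the 4 Thr arrays lay below background, so no size is given. The limma adjusted p was 0.0156, and 0.000732 to 0.241 when 1 amygdala array was left out. Genes were tested if they passed log2 4.6 on at least 4 arrays. In the amygdala all 4 Thr arrays passed that level for Avp and none of the Ala arrays did. The other regions had Avp means of 3.86 to 4.09. Avp may therefore have entered the test only through its higher group. Its call and p-value are not read as support for a genotype difference. The mean of the 9 hypothalamus markers, Avp among them, was 4.66 to 5.14 on these Ala arrays and 5.15 to 5.76 on the Thr arrays, and its part in the Avp difference was not tested.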

How the data were processed

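The values are deposited log2 signals from RMA, per the submitters' processing notes, with neither version nor genome build given in the sources used here. As RMA already removes background, normalizes arrays and merges probes into rows (array medians 6.12 to 6.32), no scaling was added. Rows were named through the platform annotation, updated by Entrez ID (28846 rows, 6640 of them control rows, 5222 of those negative). Genes above log2 4.60, the 30th percentile, on at least 4 arrays were tested. The limma package (3.58.1, under R 4.3.3) fitted 10 group means, using lmFit and eBayes with a trend on 30 residual degrees of freedom. Adjusted p-values are Benjamini-Hochberg over all 14978 genes, and regional calls also needed 1 log2 unit. Marker scores are list means centred on the region. The steps were tested on simulated data. No 2 arrays were identical. Named genes were the 9 members, Dio2, up to 4 called genes per list and contrast (otherwise the smallest p), the 3 most similar genes of each member with a range of at least 1 unit, and listed markers. Members and lists were chosen with earlier results of these data known. Alternatives covered scaling, filters, variance estimates, array weights, covariates, thresholds and left-out arrays. Promoter sequences are from RefSeq, GRCm38.p6.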

Additional observations from a re-analysis of the deposited data

Results flagged for a closer look

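Among the 90 groups of 4 arrays (9 genes in 10 groups), 2 held an array far from the other 3, where chance flags about 5 percent of groups. Both concerned Tsc22d3. Ala hippocampus replicate 18 read 8.53, against 9.66 to 9.89 on the other Ala hippocampus arrays. Thr amygdala replicate 5 read 8.57, against 8.92 to 8.95 on the other Thr amygdala arrays.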

How the results depend on the processing

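Over 58 settings, 40 of which left out 1 array, none of the 99 values of the 9 genes reversed a call, 13 lost a call and 13 gained one somewhere. Genotype counts of called members were 0 in every setting, and 27 of 54 uncalled genotype differences changed sign at least once. With no minimum difference, the members called numbered 8 in the amygdala, 5 in the prefrontal cortex and 7 in the striatum. In the cerebellum they numbered 8 and in the hippocampus 6. With a minimum of 2 log2 units they numbered 0 in the amygdala, 4 in the cerebellum, 2 in the hippocampus, 0 in the prefrontal cortex and 2 in the striatum. The share of all genes called at these other thresholds was not computed, so these counts cannot be set against it. With 1 array left out the counts were 3 to 4 in the amygdala, 5 to 6 in the cerebellum, 4 to 5 in the hippocampus, 2 to 3 in the prefrontal cortex and 4 in the striatum. In the same order, the genes called among all 14978 were 818 to 951, 2773 to 2847, 849 to 930, 763 to 810 and 1615 to 1706. Centring arrays on their medians moved the median of all genes in the cerebellum to -0.105, against -0.00465 as reported. Genes called over the whole array numbered 18 in the amygdala (4 to 22 over the alternatives), 12 in the striatum (7 to 15), 0 in the hippocampus (0 to 3) and 6 for variation between regions (0 to 8). The hippocampus and thalamus scores as covariates and the joint removal of arrays that stood apart were chosen after seeing the data. No paired analysis was possible because every array has a label number of its own, so the groups share no replicate numbers. Limits: 4 arrays a group leave wide 95% intervals, such as -0.40 to 1.05 for Nr3c2 in the amygdala, and Crhr2, and Crhbp in the cerebellum, lie at background.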
